A study of Homo sapiens with 6 samples.

Results

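The platelet-derived growth factor (PDGF) genes were read in LX-2, an immortalized line of human hepatic stellate cells (HSCs), as the 7 rows of the deposited gene table that carry an Ensembl identifier and the symbol PDGFA, PDGFB, PDGFC, PDGFD, PDGFRA, PDGFRB or PDGFRL. All 7 were found among 60780 rows. The cells had been kept for 24 h in conditioned medium of the human colorectal carcinoma line HCT116, whose cells had received either an empty lentiviral vector (Vector-CM, n = 3) or a lentivirus that overexpresses FGFBP1, a protein that carries FGFs out of the matrix (FGFBP1-CM, n = 3). Stable donor clones had been selected with puromycin (how many clones gave the medium is not stated in the sources used here), the vector also encodes EGFP, and the serum content of the medium is not stated either. The question was how overexpression of FGFBP1 in the tumor cells alters RNA levels in the stellate cells that receive their medium. RNA was sequenced from the LX-2 cells alone, so PDGF protein, PDGF made by the HCT116 cells and receptor phosphorylation were not measured. The labels number the libraries of a group without saying whether they came from separate cultures, so p-values measure only the spread between these libraries.

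PDGFs are disulfide-linked dimers that signal through the receptor tyrosine kinases encoded by PDGFRA and PDGFRB. The A and B chains are cut to their active form inside the cell, whereas the C and D chains are secreted with a CUB domain that a protease outside the cell has to remove. PDGFR-α binds the A, B and C chains, and PDGFR-β binds the B and D chains. In the liver PDGF-B is known as a strong mitogen of stellate cells, and PDGFRB is a standard marker of stellate cells, pericytes and the myofibroblasts that form in fibrosis.

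Total counts ranged from 14003780 to 18508113 per library. Of 15 stellate cell markers, 12 had at least 10 counts in every library, among them COL1A1 at 16.6 ± 2.08 FPKM (SD, n = 6; fragments scaled by gene length and library total), while DES was at 0.0583 ± 0.0392 FPKM and LRAT had 0 counts in each library. The summed level of these 15 markers was 2820 to 3000 CPM (counts scaled to library size) in Vector-CM and 2280 to 2670 CPM in FGFBP1-CM, but VIM alone made up 86.4% to 89.9% of it. Without VIM the sum was 317 to 353 CPM and 241 to 309 CPM. The 9 hepatocyte markers summed to 38.3 to 39.3 CPM in Vector-CM and 17.6 to 27.1 CPM in FGFBP1-CM, with APOA1, TTR and AHSG at 3 counts or fewer in each library. SERPINA1 made up 72.4% to 94.0% of it, and without SERPINA1 the sum was 8.32 to 10.8 CPM and 1.35 to 1.63 CPM. ALB had 45, 47 and 65 counts in Vector-CM and 16, 7 and 9 in FGFBP1-CM, and APOB had 57, 41 and 59 against 4, 7 and 3. The 7 endothelial markers summed to 136 to 153 and 119 to 133 CPM, nearly all of it TIE1, with CDH5 and CLDN5 at 3 counts or fewer. Colorectal epithelial markers summed to 4.12 to 6.06 and 3.75 to 4.77 CPM, and leukocyte and platelet markers to 8.68 to 11.9 and 7.58 to 10.4 CPM, with PF4 and GP9 at 0. The part of these shifts in the values below was not tested. In bulk RNA of a cell line, fewer cells that express a gene and less RNA per cell cannot be told apart. FGFBP1 itself had 0 to 4 counts per LX-2 library, which does not check the labels, because it was overexpressed in the HCT116 cells.

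PDGFC was the most abundant ligand transcript in LX-2 cells and PDGFRB the most abundant receptor transcript. PDGFC had the highest FPKM of the 7 genes, 18.8 ± 0.669 (SD, n = 6), followed by PDGFA at 5.33 ± 0.591, PDGFRB at 3.38 ± 0.29, PDGFRL at 1.84 ± 0.205 and PDGFB at 0.616 ± 0.138. PDGFD, at 0.168 ± 0.0507 FPKM, and PDGFRA, at 0.123 ± 0.0298 FPKM, closed the order. The ranges of each of the first 5 genes over the 6 libraries lay wholly above the range of the next gene, whereas the ranges of PDGFD and PDGFRA overlapped, so the order of these last genes was not resolved. Set among all tested genes, the mean FPKM of PDGFC lay above 85.4% of them and that of PDGFRA above 1.5%.

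**Figure D1:**
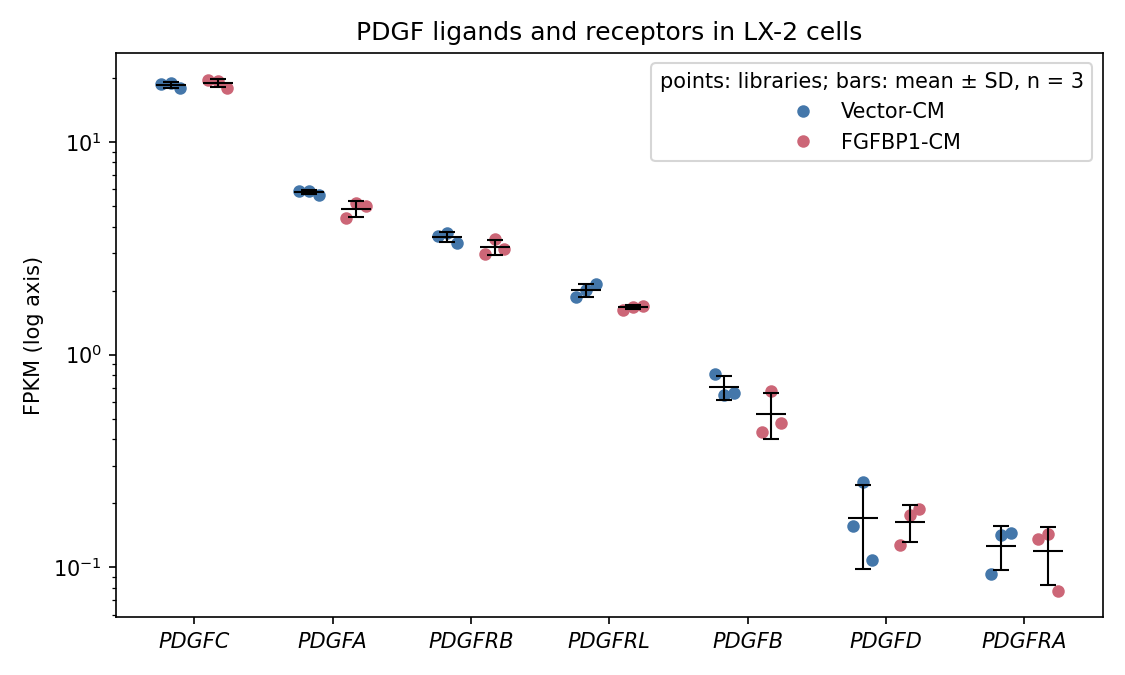
FPKM of the 7 PDGF genes on a log axis, ordered by mean level, with each point a library and each bar the mean ± SD of 3 libraries. PDGFC lies near 18.8 FPKM and PDGFRA near 0.123 FPKM, and the groups lie close together beside the distance between genes.

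Of the 7 members, all passed the filter on low counts and were tested. By edgeR, none had an adjusted p under 0.05 for FGFBP1-CM against Vector-CM, while 0.120% of all 16707 tested genes did. At an unadjusted p under 0.05 there was 1 member, PDGFA, against 21.7% of all tested genes, and DESeq2 also called 0 members, against 4.75% of the genes to which it gave an adjusted p. DESeq2 gave no adjusted p for PDGFB, PDGFD and PDGFRA. The fitted log2 fold change was below 0 for 7 of 7 members, with a median of -0.19, against 49.3% of all tested genes and a median of 0.00 over them. For PDGFC, PDGFD and PDGFRA the sign depended on the processing or the libraries kept, so their direction is not resolved. The groups did not overlap in CPM for 2 members, PDGFA and PDGFRL, both lower in FGFBP1-CM, while 26.0% of all tested genes did not overlap and 13.2% did so with FGFBP1-CM lower.

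**Figure D2:**
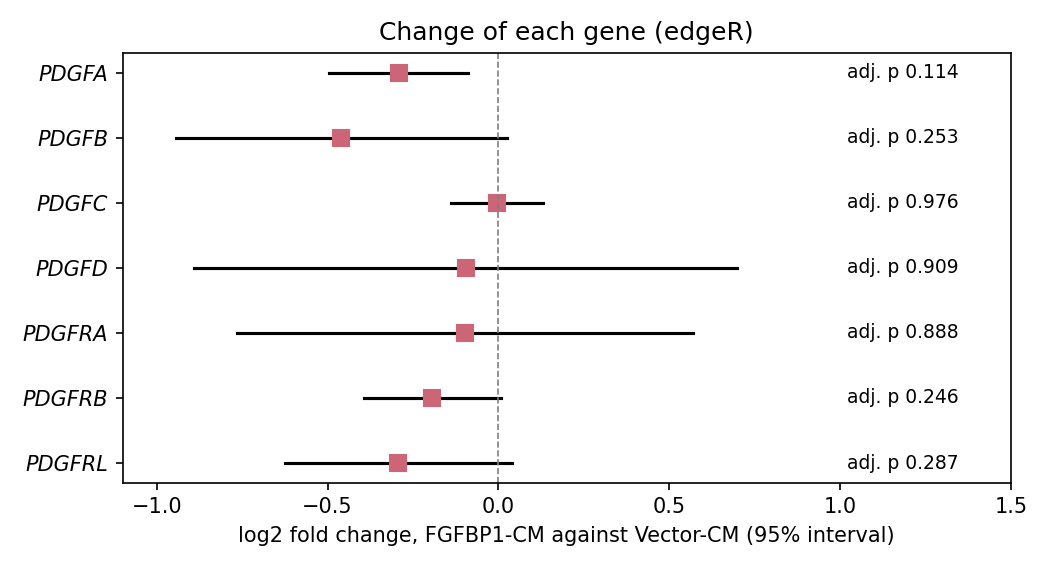
Log2 fold change of each gene (square) with its 95% interval (line) and the adjusted p from edgeR, 3 libraries against 3. The interval of PDGFC, -0.14 to 0.13, is the narrowest, and only that of PDGFA leaves out 0.

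PDGFA (ENSG00000197461; chromosome 7, 497258 to 520296, minus strand in GENCODE 29, GRCh38) encodes the A chain, the ligand of PDGFR-α that many mesenchymal and epithelial cells make. Its level was 24.6, 24.7 and 24.0 CPM in the Vector-CM libraries and 17.7, 21.5 and 20.7 CPM in the FGFBP1-CM libraries, in the order of their numbers, from 336 to 440 counts per library. All 3 FGFBP1-CM libraries lay below the 3 Vector-CM libraries, and FGFBP1-CM replicate 1 was the lowest. The means were 24.4 ± 0.394 CPM in Vector-CM (SD, n = 3) and 20 ± 2.01 CPM in FGFBP1-CM. The log2 fold change was -0.29 (SE 0.0943, 95% interval -0.495 to -0.09), and the adjusted p of 0.114 (edgeR) missed the threshold. PDGFA ranked 1226 by p among the 16707 genes.

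The PDGFA promoter is a textbook target of EGR1, a transcription factor that FGF and PDGF signaling can induce and that competes there with SP1 for G-rich DNA. Its windows with EGR1 letters are therefore shown. RefSeq (GRCh38.p14) lists 4 PDGFA start sites with a window of 250 bases before and 50 after each, and 2 of these windows held the EGR1 letters GCGGGGGCG, each at 2 places. The first window below, chr7:519797-520096, lies inside the gene, with 137 bases in annotated PDGFA exons. The second, chr7:520177-520476, covers the outer end of the gene, with 120 bases in exons. Both are read 5′ to 3′ on the minus strand, and capitals mark GCGGGGGCG.
PDGFA inner start: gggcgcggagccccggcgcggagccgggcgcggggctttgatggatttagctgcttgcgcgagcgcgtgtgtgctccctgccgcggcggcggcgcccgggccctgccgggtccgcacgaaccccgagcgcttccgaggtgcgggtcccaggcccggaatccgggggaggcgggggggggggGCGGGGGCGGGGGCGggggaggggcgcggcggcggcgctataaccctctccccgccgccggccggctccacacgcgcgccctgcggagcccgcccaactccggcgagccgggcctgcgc
PDGFA outer start: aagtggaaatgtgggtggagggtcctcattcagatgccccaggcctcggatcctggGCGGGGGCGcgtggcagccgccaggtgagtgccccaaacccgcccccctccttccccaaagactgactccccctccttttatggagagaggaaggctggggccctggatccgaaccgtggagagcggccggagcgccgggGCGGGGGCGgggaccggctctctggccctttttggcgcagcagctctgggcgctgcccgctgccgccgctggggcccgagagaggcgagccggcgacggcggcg
In the inner window the matches began 69 and 63 bases before the start site and overlapped each other, and each also overlapped the GC box letters GGGCGG. In the outer window they began 194 and 54 bases before it. The GC content was 81.7% in the inner window and 71.7% in the outer window. These names refer to the shown windows only. Of the others, chr7:518280-518579 lies further in, chr7:520651-520950 lies further out, and neither held GCGGGGGCG. Over both strands, GCGGGGGCG was found in 5.07% of all 35116 promoter windows of this length, whatever their GC content, and GGGCGG in 45.0%. Counted by gene, 6.14% of the genes with such windows had a GCGGGGGCG match. Such a match describes the letters only, and binding was not measured. EGR1 RNA was 15.3 ± 2.77 CPM in Vector-CM (SD, n = 3) and 19.6 ± 5.01 CPM in FGFBP1-CM, or 0.36 as log2 fold change (edgeR, adjusted p = 0.241), with overlapping groups, while PDGFA had -0.29. EGR1 was picked out here after its values had been seen.

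PDGFC (ENSG00000145431; chromosome 4, 156760454 to 156971394, minus strand) encodes a CUB-domain ligand of PDGFR-α. It was the most precisely measured gene of the family, with 1597 to 2175 counts per library. Its level was 114, 116 and 110 CPM in the Vector-CM libraries and 115, 116 and 108 CPM in the FGFBP1-CM libraries, so the groups covered the same range. Its log2 fold change was -0.0046 (SE 0.0623; adjusted p = 0.976, edgeR), and its 95% interval leaves room for a fold between 0.908 and 1.09.

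PDGFB (ENSG00000100311; chromosome 22, 39223359 to 39244751, minus strand) encodes the B chain, which binds both receptors. It had 58, 36 and 40 counts in Vector-CM and 32, 43 and 31 in FGFBP1-CM, or 3.24, 2.6 and 2.7 CPM against 1.69, 2.7 and 1.9 CPM. FGFBP1-CM replicate 2 reached the level of Vector-CM replicates 2 and 3, so the groups overlapped. PDGFB had the lowest log2 fold change of the family, -0.46 (SE 0.225), with an adjusted p of 0.253 (edgeR) and a 95% interval from -0.94 to 0.02. Leaving out FGFBP1-CM replicate 2 gave -0.68 (edgeR, adjusted p = 0.109), and leaving out FGFBP1-CM replicate 1 gave -0.32 (edgeR, adjusted p = 0.564).

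PDGFD (ENSG00000170962; chromosome 11, 103907186 to 104164379, minus strand) encodes a CUB-domain ligand of PDGFR-β. It had 12, 15 and 7 counts in Vector-CM and 10, 12 and 13 in FGFBP1-CM. These are above the 3 counts that a count of 0 allows, which equal 0.158 to 0.217 CPM, but the level is close to that limit. For PDGFD the log2 fold change was -0.10 (SE 0.369; adjusted p = 0.909, edgeR), with a fold between 0.54 and 1.62 inside the 95% interval, so a moderate difference was not detectable at this depth. Exons of DDI1 on the other strand share 193 bp with those of PDGFD, and DDI1 had 0 counts.

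Within a library, ratios between the ligands do not depend on the scaling between libraries. The ratio of PDGFC to PDGFA FPKM was 3.2, 3.23 and 3.18 in the Vector-CM libraries and 4.48, 3.72 and 3.59 in the FGFBP1-CM libraries. The groups did not overlap, as was so for PDGFA alone and for 26.0% of all tested genes in CPM. For the ratios of PDGFC to PDGFB, PDGFC to PDGFD and PDGFA to PDGFB the groups overlapped. No test was run on the ratio, for which an exact permutation test of 3 libraries against 3 could not go below p = 0.1. PDGFC made up 73.6% ± 0.215 of the summed FPKM of the 4 ligand genes in Vector-CM and 77.4% ± 2.18 in FGFBP1-CM (SD, n = 3). The share of PDGFA was 23.0% ± 0.183 and 19.8% ± 1.76. PDGFB stayed between 1.77% and 3.14% and PDGFD between 0.444% and 0.974% in each library. The summed FPKM of the 4 ligands was 25.3 ± 0.816 in Vector-CM and 24.5 ± 0.786 in FGFBP1-CM, and here the groups overlapped.

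**Figure D3:**
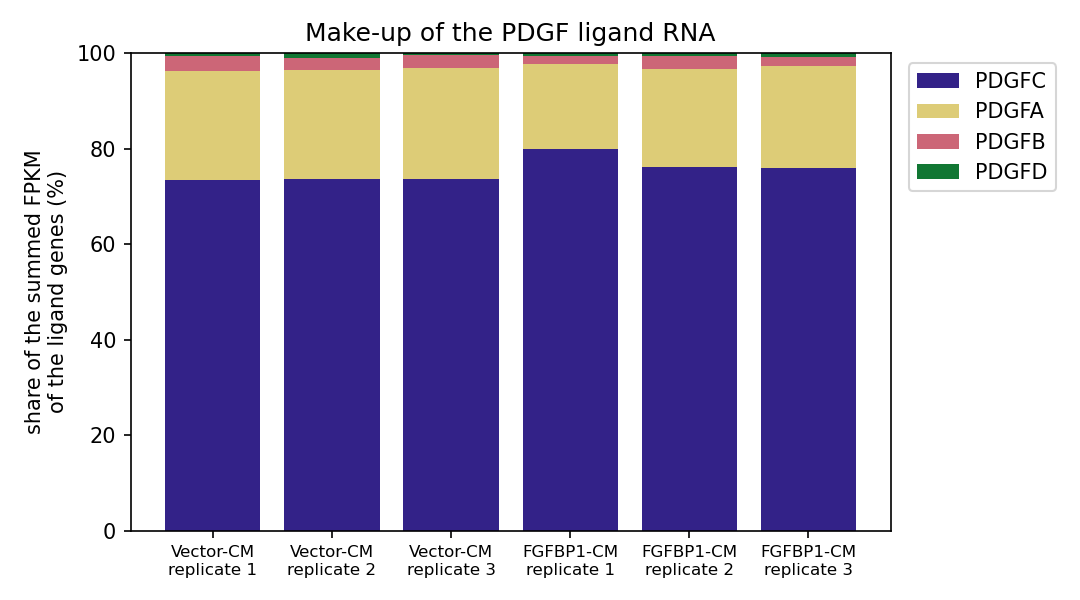
Share of each ligand gene in the summed FPKM of PDGFA, PDGFB, PDGFC and PDGFD, in percent, with a bar per library. PDGFC takes 73.3% to 79.9% of every bar, and its share is highest in FGFBP1-CM replicate 1.

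Of the receptors, PDGFRB (ENSG00000113721; chromosome 5, 150113837 to 150155872, minus strand) encodes PDGFR-β. Its level was 25.8, 27.0 and 24.5 CPM in the Vector-CM libraries and 20.6, 24.9 and 22.2 CPM in the FGFBP1-CM libraries, from 363 to 462 counts per library. FGFBP1-CM replicate 2 lay above Vector-CM replicate 3, so the groups overlapped, while the other FGFBP1-CM libraries lay below every Vector-CM library. The log2 fold change was -0.19 (SE 0.0928, 95% interval -0.39 to 0.01), with an adjusted p of 0.246 (edgeR). Leaving out FGFBP1-CM replicate 1 gave -0.13 (edgeR, adjusted p = 0.537), and leaving out FGFBP1-CM replicate 2 gave -0.27 (edgeR, adjusted p = 0.119).

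PDGFRA (ENSG00000134853; chromosome 4, 54229097 to 54298247, plus strand) encodes PDGFR-α, the receptor of the A and C chains, whose genes were the most abundant ligand genes here. It had only 16, 19 and 21 counts in Vector-CM and 24, 22 and 12 in FGFBP1-CM, or 0.893, 1.37 and 1.41 CPM against 1.27, 1.38 and 0.734 CPM. For PDGFRA the log2 fold change was -0.10 (SE 0.31; adjusted p = 0.888, edgeR), with a 95% interval from -0.76 to 0.57, so the depth leaves the direction unresolved. AC058822.1, a gene annotated on the same strand, shares 1533 of the 9732 exon bases of PDGFRA and had 0 counts. Reads in the shared bases could have been left uncounted, depending on how ambiguous reads were treated, which is not stated in the sources used here.

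PDGFRB exceeded PDGFRA in every library. The ratio of their FPKM was 38.6, 26.3 and 23.2 in the Vector-CM libraries and 21.8, 24.1 and 40.5 in the FGFBP1-CM libraries, with means of 29.4 ± 8.17 and 28.8 ± 10.2 (SD, n = 3). The groups overlapped, and PDGFRA gave 12 to 24 counts to this ratio in each library. The starts of both receptor genes are set side by side because their RNA levels were so far apart. The PDGFRB window is chr5:150155796-150156095 on the minus strand, with 77 bases in annotated exons, and the first of the PDGFRA windows is chr4:54229043-54229342 on the plus strand, with 246 bases in exons (RefSeq, GRCh38.p14). Capitals mark CCAAT, the letters bound by the factor NF-Y.
PDGFRB start: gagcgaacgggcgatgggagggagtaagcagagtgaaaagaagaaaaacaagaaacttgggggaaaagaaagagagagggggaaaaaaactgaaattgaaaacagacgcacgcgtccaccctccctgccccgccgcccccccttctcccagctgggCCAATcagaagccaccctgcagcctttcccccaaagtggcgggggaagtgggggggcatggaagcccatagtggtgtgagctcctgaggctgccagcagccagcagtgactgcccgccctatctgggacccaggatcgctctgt
PDGFRA start: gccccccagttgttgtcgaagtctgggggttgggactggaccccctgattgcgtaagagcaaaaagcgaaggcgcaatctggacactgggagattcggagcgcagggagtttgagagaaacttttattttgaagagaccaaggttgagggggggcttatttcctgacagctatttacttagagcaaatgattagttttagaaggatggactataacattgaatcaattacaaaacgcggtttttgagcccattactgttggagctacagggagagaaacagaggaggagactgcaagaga
The PDGFRB window had CCAAT at 1 place, 94 bases before the start site, and a GC content of 59.3%. The PDGFRA window had a GC content of 47.0% and no match on either strand to CCAAT, to the EGR1 letters or to the GC box letters. A second PDGFRA window, further into the gene, had CCAAT at 1 place, the GC box letters at 2 places and a GC content of 66.7%, while the PDGFRB window also had the GC box letters at 2 places. Over both strands, CCAAT was found in 34.6% of all windows, and its absence from a window says nothing about the factor.

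PDGFRL (ENSG00000104213; chromosome 8, 17576433 to 17644071, plus strand) encodes a secreted protein that resembles the outer part of the receptors and lacks a kinase. Its level was 4.52, 4.92 and 5.32 CPM in the Vector-CM libraries and 3.85, 4.08 and 4.1 CPM in the FGFBP1-CM libraries, from 65 to 81 counts per library. All FGFBP1-CM libraries lay below all Vector-CM libraries. The log2 fold change was -0.29 (SE 0.154, 95% interval -0.62 to 0.04), and the adjusted p was 0.287 (edgeR). Exons of MTUS1 on the other strand share 277 bp with PDGFRL, and MTUS1 had 109 to 206 counts per library, so some reads of this pair could have been assigned to either gene if strand was not used in counting.

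In 16 alternative fits, PDGFA had a log2 fold change below 0 and an unadjusted p under 0.05 in each, with an adjusted p from 0.069 to 0.288 and no call. PDGFB, PDGFRB and PDGFRL were below 0 in each of the 16 fits too, again with no call. The sign of PDGFC, PDGFD and PDGFRA depended on the fit.

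**Figure D4:**
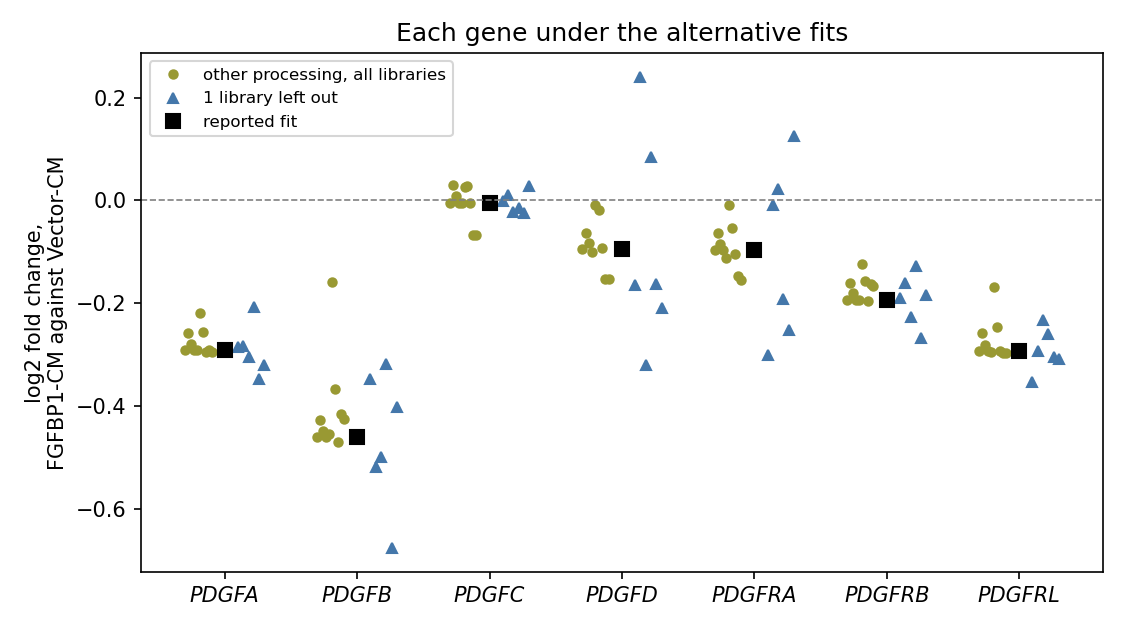
Log2 fold change of each gene in the reported edgeR fit (black square), under other processing of all 6 libraries (circles) and with 1 library left out (triangles). PDGFA ranges from -0.35 to -0.21, while PDGFD ranges from -0.32 to 0.24 and PDGFRA from -0.30 to 0.13.

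Around the ligands and receptors, 5 lists held 88 genes, of which 81 were tested. None of the 81 passed an adjusted p of 0.05 (edgeR), while 9 were higher and 18 lower in FGFBP1-CM at an unadjusted p under 0.05, where 11.1% of all tested genes were higher and 10.7% lower. The share that was higher thus equals that of all genes, while the share that was lower is above that of all genes. The lists were chosen with earlier results of these data known, so these shares only describe the listed genes. DESeq2 called 8 of the 72 listed genes to which it gave an adjusted p, 2 higher and 6 lower, against 4.75% of all such genes. The median log2 fold change of the 81 genes was -0.05. Over the tested genes with a known GC content, log2 fold change fell with transcript GC content (Spearman rho -0.206, and -0.0179 after GC and length correction). With that correction the log2 fold change was -0.29 for PDGFA, -0.42 for PDGFB, -0.07 for PDGFC and -0.15 for PDGFD. For PDGFRA it was -0.15, for PDGFRB -0.16 and for PDGFRL -0.30, and no member or listed gene was called. The part of the GC trend in the counts of the lists was not tested further. The counts of the single lists below stand beside the same shares of all tested genes, 11.1% higher and 10.7% lower. These lists were not tested as sets.

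**Figure D5:**
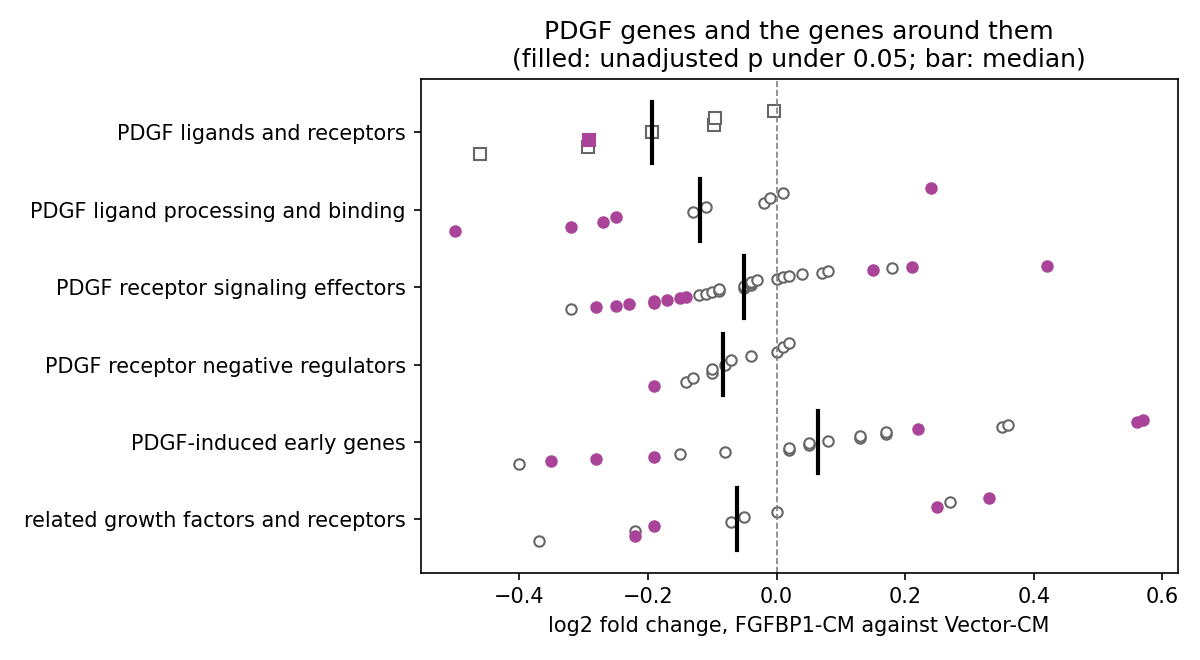
Log2 fold change of the PDGF genes (squares) and of the tested genes of 5 lists around them (circles), filled where the unadjusted p is under 0.05, with a bar at each median. The median is -0.19 for the PDGF genes and lies between -0.12 and 0.06 for the lists.

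Genes that process or bind PDGF ligands had 10 tested members, 8 of them below 0, with a median log2 fold change of -0.12. At an unadjusted p under 0.05 there were 4 lower and 1 higher. SPARC, a matrix protein that binds PDGF-B, was 518 ± 28.1 CPM in Vector-CM (SD, n = 3) and 366 ± 73.9 CPM in FGFBP1-CM, or -0.50 as log2 fold change (edgeR, adjusted p = 0.0634). PLAT, the plasminogen activator that cuts the CUB domain from PDGF-C, was 339 ± 32.3 and 271 ± 37.7 CPM, or -0.32 as log2 fold change (edgeR, adjusted p = 0.0969). NRP2, a neuropilin co-receptor, had a log2 fold change of -0.27 (edgeR, adjusted p = 0.0658). The groups did not overlap for 4 of the 10 tested genes, all lower in FGFBP1-CM, against 13.2% of all tested genes. Lower without overlap were also 9 of 30 signaling effectors, 3 of 11 negative regulators, 4 of 20 early genes and 3 of 10 related genes. Higher without overlap in these other lists were 2, 0, 3 and 2.

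Signaling effectors had 30 tested members, 20 of them below 0, with a median of -0.05, and 3 higher and 8 lower at an unadjusted p under 0.05. SOS2, an exchange factor that activates RAS, had a log2 fold change of 0.42 (edgeR, adjusted p = 0.0568), from 40.1 ± 2.42 to 53.6 ± 4.84 CPM (SD, n = 3). MAPK3, which encodes ERK1, had -0.28 (edgeR, adjusted p = 0.0736), and STAT3, a transcription factor that PDGF receptors can activate, had -0.25 (edgeR, adjusted p = 0.0877).

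Negative regulators of the receptors had 11 tested members, 9 below 0, with a median of -0.08 and 1 gene at an unadjusted p under 0.05. That gene was PTPN12, a phosphatase, with a log2 fold change of -0.19 (edgeR, adjusted p = 0.158). The ubiquitin ligase gene CBLB had -0.13 (edgeR, adjusted p = 0.303) and the phosphatase gene PTPN2 had -0.14 (edgeR, adjusted p = 0.358).

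Early genes that PDGF is known to induce had 20 tested members, 14 of them above 0, with a median of 0.06, and 3 higher and 3 lower at an unadjusted p under 0.05. KLF6 had a log2 fold change of -0.28 (edgeR, adjusted p = 0.068) and JUNB, an AP-1 subunit, had -0.35 (edgeR, adjusted p = 0.0961). FOS, another AP-1 subunit, had 0.56 (edgeR, adjusted p = 0.111) at a low level, 2.4 ± 0.0891 CPM in Vector-CM (SD, n = 3) and 3.54 ± 0.144 CPM in FGFBP1-CM.

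Related growth factors and receptors of the VEGF, KIT and CSF1 systems had 10 tested members, 7 below 0, with a median of -0.06, and 2 higher and 2 lower at an unadjusted p under 0.05. KITLG, the ligand of KIT, had a log2 fold change of 0.33 (edgeR, adjusted p = 0.068), from 30.9 ± 1.72 to 38.8 ± 2.31 CPM (SD, n = 3). VEGFC, a lymphatic growth factor, had 0.25 (edgeR, adjusted p = 0.156), and CSF1, a macrophage growth factor, had -0.22 (edgeR, adjusted p = 0.12).

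Likeness of pattern was measured by Pearson r of log2(CPM + 0.5) over the 6 libraries among the 13760 tested genes that had an Ensembl identifier, a symbol and a mean of at least 1 CPM. The closest genes were NT5DC3 and TROAP for PDGFA (both r = 0.998), REPS2 and ASIC1 for PDGFB (0.999 and 0.996), PLCB1 for PDGFC (0.999), SLC6A6 and NTF3 for PDGFRB (0.997 and 0.994), KHNYN and WT1 for PDGFRA (0.983 and 0.981) and MARCHF5 and TMEM159 for PDGFRL (0.994 and 0.993). With 6 libraries, which share their depth and scaling, the median gene had a best partner at r = 0.994, so such values are no mark of a particular relation.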

How the data were processed

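LX-2 RNA was sequenced after 24 h in Vector-CM or FGFBP1-CM, 3 libraries each, grouped by the sample labels. The authors deposited raw counts per gene, made with HISAT2 2.0.5 and featureCounts 1.5.0-p3 per the submitters' processing notes, which name hg18. The authors also deposited FPKM, computed from counts and gene length, which was used to compare genes. Annotation release and strand setting are not given in the sources used here, and the methods mention poly(A) selection as well as rRNA depletion. Positions are those of GENCODE 29 (GRCh38), where 96.3% of the Ensembl identifiers were found, which may differ from the build behind the counts. Promoters came from RefSeq (GRCh38.p14), which held windows for 4 of the 7 genes.

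The counts were tested in R 4.3.3 with edgeR 4.0.16 (filterByExpr, TMM, quasi-likelihood F-test), with Benjamini-Hochberg adjustment over 16707 genes and a threshold of 0.05. SE was the log2 fold change divided by the square root of F, and CPM used the TMM-scaled library size. Genes named from the 5 lists were the 3 with the lowest p in each, and the 2 genes most like each member with a mean of at least 1 CPM. EGR1 was added after its values had been seen. A gene that the rule on likeness names for PDGFC is not reported here. The members and lists were chosen with earlier results of these data known. Scripts were tested on simulated data. Floors cover counting error only. Alternatives were other scalings and filters, DESeq2 1.42.0, limma 3.58.1 on log2(FPKM + 1) and log2(FPKM + 0.1), GC and length correction (loess, span 0.3), a replicate block and leaving out each library.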

Additional observations from a re-analysis of the deposited data

How the results depend on the processing

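No member was called in any of the 16 alternative fits, and at an unadjusted p under 0.05 the members called were 1 (PDGFA). Against 20 differential genes in all, 9 higher and 11 lower, RLE scaling gave 38 (24 higher), no filter on low counts 1382 (833 higher), a mean of at least 1 CPM 11, DESeq2 580, limma 1 with either pseudocount, correction for GC and length 48, and an unadjusted p 3630. Leaving out 1 library gave 4 to 883, with 72, 883 and 402 without FGFBP1-CM replicates 1, 2 and 3. Of the genes in the 5 lists, 13 passed with no filter, 8 with DESeq2, 27 at an unadjusted p, and 0 to 9 with 1 library left out. The fit with no filter had infinite prior degrees of freedom, against 9.32 in the reported fit. Its p-values thus took the spread of each gene from the trend over all genes. With the replicate block 90 genes and 3 listed genes passed, while the block together with the GC correction gave 88 (26 higher) and 3. Deviations from the group means had r = -0.118, -0.022 and 0.148 between libraries with the same number, over 15033 genes. Between libraries with different numbers r ranged from -0.216 to 0.192. With 3 libraries per group, whose deviations offset one another, these values can neither show nor exclude pairing. The cause of these moves was not tested.

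The log2 fold change of PDGFC was 0.0292 with library size only, 0.0269 and 0.0282 in the limma fits with a pseudocount of 1 and 0.1, and 0.00787 with no filter. With 1 library left out it ranged from -0.0244 to 0.0278, that of PDGFD from -0.32 to 0.24 and that of PDGFRA from -0.30 to 0.13. The other 108 values of single members kept their direction, including 7 at an unadjusted p, which repeat the reported fit and could not change. Among the 108 were the lowest of PDGFC, -0.068 with correction for GC and length, with or without the replicate block. By counts, not per length, the mean ratio of PDGFC to PDGFA was 5.16 in place of 3.57, and by CPM only 3 of the 7 genes kept their rank. Depth limits PDGFD and PDGFRA most, with 7 to 24 counts per library.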
